A study of Homo sapiens with 6 samples.

Results

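The G protein-coupled receptor kinases, GRK1 to GRK7, are 7 genes, chosen here by name and found in the screen by the locus identifier of each well. All 7 were present, on 9 of the 939 library wells, because GRK2 (listed as ADRBK1) and GRK3 (listed as ADRBK2) each had 2 wells. The screen used SUM149PT, an established cell line of triple-negative inflammatory breast cancer, and asked which druggable genes, when knocked down, add to the antitumour effect of eicosapentaenoic acid (EPA), an omega-3 fatty acid. The 3 untreated samples received siRNA alone, and the 3 EPA-treated samples received the same siRNA and then 50 µM EPA, the IC50 per the labels. In both groups 750 cells per well were reverse-transfected with 45 nM siRNA for 48 hours, and the protocol gives a further 72 hours with EPA. Living cells then converted resazurin to a fluorescent product, and the brightness of each well was read. The readout is that of 1 cell line. It does not tell fewer cells from less conversion per cell, and the level of GRK RNA or protein after knockdown was not analysed here.

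GRKs phosphorylate G protein-coupled receptors that have bound their ligand. The phosphorylated receptor binds an arrestin, which uncouples it from its G protein and directs it to internalisation. The family has 3 branches: GRK1 and GRK7, the visual kinases of rods and cones; GRK2 and GRK3, which are brought to the membrane by G-protein beta-gamma subunits; and GRK4, GRK5 and GRK6, which associate with the membrane through their own lipid or basic regions.

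With the library median of the plate as the reference, the 9 wells could be sorted into 3 patterns. GRK1, GRK5 and GRK6 siRNAs left a signal near that of the typical library siRNA without EPA and a lower one with EPA. With EPA 6 of the 9 wells (GRK1, both GRK2 wells, GRK4, GRK5 and GRK6) were called lower than the library, as were 37% of library wells, and 1 (GRK3 on plate 3) higher, as were 36.4%. GRK2 and GRK4 siRNAs already gave a low signal without EPA, and most or all of it was left with EPA (85.0%, 102% and 84.8%, or 74.4%, 102% and 74.5% after blank subtraction, for GRK2 on plate 3, GRK2 on plate 1 and GRK4). GRK3 and GRK7 siRNAs were not called in the comparison of the groups, although GRK3 on plate 3 stood at -0.37. In the EPA-treated minus untreated comparison 3 of the 9 wells were called lower (GRK1, GRK5 and GRK6) and 2 higher (both GRK2 wells). Over all 939 library wells 15.2% were called lower and 29% higher, so 5 calls among 9 wells is near the share in the library, 44.2%. Log2 values are relative to the median library well, taken per plate and per sample, and a call is an adjusted p under 0.05 in a limma fit over all library wells. The median of the 9 wells was 0.0026 in this comparison, against 0.20 over the library. In raw fluorescence the EPA-treated values lay wholly below the untreated ones on 5 of the 9 wells, as they did on 61.7% of library wells. The patterns depended on the reference. With OTP3, the negative control siRNA, GRK1 was called lower untreated (-1.03), and the differences of GRK5 and GRK6 were not called. After median polish, which removes row and column medians, GRK6 was called higher untreated (0.86) and not called with EPA (0.17).

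**Figure D1:**
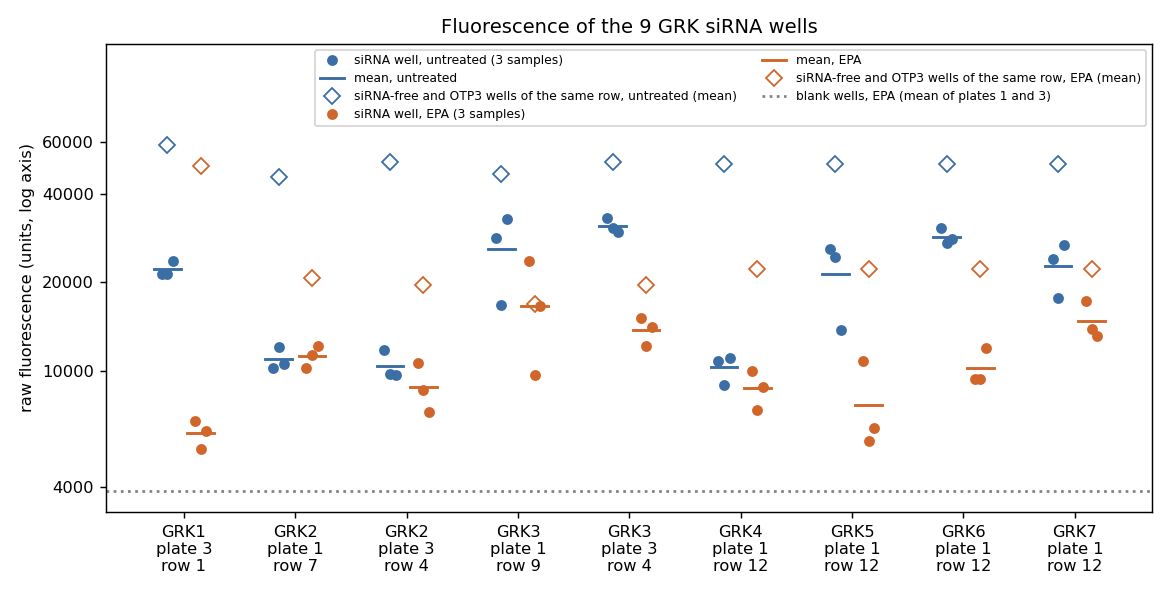
Raw fluorescence (log axis) of the 9 GRK wells in 3 untreated (blue) and 3 EPA-treated (orange) samples, with bars at the means. Diamonds show the control wells of the same plate row (siRNA-free, OTP3 or both), and a dotted line marks the blank level with EPA. The GRK1 wells drop from a mean of 22147 to 6140 while the diamonds of their row stay high, and the GRK2 wells on plate 1 stay at 10950 and 11194.

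Across the plates, cells without siRNA kept 50.0% ± 3.22 (SE, n = 3 each) of their signal with EPA. OTP3, the negative control siRNA, kept 50.8% ± 3.50. The median library signal with EPA was 59.0% ± 3.94 of the median library signal without it. Taken well by well, the median share left in the library was 68.5% on plate 1 and 68.3% on plate 3. The share kept was uneven over the plate. On plate 1 the control wells (siRNA-free, OTP3 or both) kept 88.7% in row 1, 36.0% in row 9 and 80.8% in row 16. Each GRK well is therefore also given beside the 2 or 3 such wells of its own row (its row's controls). Not every row held both kinds: row 12 of plate 1 had siRNA-free wells alone. Rows were read from the position number of each well, in an order that the labels do not state. Wells without cells still read 3891 units on plate 1 and 3886 on plate 3 with EPA.

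GRK1, the visual kinase of rods, had the largest moderated statistic of the family in the EPA-treated minus untreated comparison. Its wells read 21416, 21287 and 23738 units in untreated replicates 1 to 3, and 6757, 5413 and 6251 in EPA-treated replicates 4 to 6. The groups did not overlap: every EPA-treated value lay far below the lowest untreated one. The signal left was 27.7% ± 2.03 (SE, n = 3 each), and exact permutation of the raw values gave p = 0.1, two-sided, the smallest possible with 3 against 3. Relative to the library, GRK1 stood at 0.14 (SE 0.117) untreated, not past the threshold (limma adjusted p = 0.3). With EPA it stood at -0.90 (SE 0.117). The difference was -1.04 (SE 0.166, 95% interval -1.41 to -0.67, limma adjusted p = 0.00136), a rank of 39 from the lowest of 939.

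The GRK1 well lay in row 1 of plate 3, at the edge, where the controls and the median library well kept most of their signal. The 3 control wells of that row, siRNA-free or OTP3, read a mean of 58751 untreated and 49838 with EPA, so 84.8% ± 5.56 (SE) was left. Of the 20 library wells in the row, whose median share was 92.1%, GRK1 had the lowest share left and the lowest mean with EPA. Untreated, 4 of the 20 read lower than GRK1. Against its row's controls GRK1 stood at 37.7% ± 1.42 (SD) untreated and at 12.4% ± 1.62 with EPA. With those controls as the reference the difference was -1.60, and after median polish, which removes row and column medians, it was -1.47. With OTP3 of the whole plate as the reference it was -0.65, and it was still called lower (limma adjusted p = 0.0105). The EPA-treated wells read 1.58 times the blank level, so the size of the fall depends on the background: after blank subtraction 12.3% ± 2.35 (SE) was left and the log2 difference was -1.97.

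The untreated level of GRK1 depended on the reference more than its difference did. It was 49.0% ± 2.74 (SD, n = 3) of OTP3 on its plate. On the log2 scale it was -1.03 against OTP3, -1.40 against the controls of its row and -0.36 after median polish, and each of these 3 was called lower.

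The library genes other than GRKs whose 6 values lay closest to those of GRK1 were LMTK2 (distance 0.35), a membrane-anchored kinase, SEPHS2 (0.42), a selenophosphate synthetase, and PGK2 (0.44), a phosphoglycerate kinase of testis. The distance is Euclidean over the 6 samples on the log2 scale, and its median over the other library wells was 2.31. Their EPA-treated minus untreated differences, kept near that of GRK1 by the choice itself, were -1.26, -0.86 and -1.11. None of these wells was at a plate edge. This scale has no correction for plate position. These 3 wells kept 26.0%, 31.4% and 28.1% of their signal with EPA, and the controls of their rows kept 33.9%, 31.3% and 37.7%. The controls in the row of GRK1 kept 84.8%, so the likeness does not extend to the position of the wells.

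GRK7, the visual kinase of cones, read 24017, 17630 and 26739 units untreated and 17234, 13904 and 13085 with EPA. The groups did not overlap, although the highest EPA-treated value was close to the lowest untreated one. GRK7 wells kept 64.7% ± 9.47 of their signal (SE, n = 3 each; exact permutation p = 0.1, two-sided, the smallest possible), beside 61.1% for the median library well of its row. GRK7 stood at -0.10 (SE 0.131) untreated and at -0.04 (SE 0.131) with EPA, and the difference was 0.07 with a 95% interval of -0.35 to 0.48 (limma adjusted p = 0.787). Against the 2 siRNA-free wells of its row, which kept 43.8%, the difference was 0.68 and was called higher (limma adjusted p = 0.011).

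GRK2, the most widely studied GRK, gave a low signal on both of its wells without EPA. The well on plate 1 read 10179, 12091 and 10579 units untreated and 10189, 11295 and 12099 with EPA. The well on plate 3 read 11800, 9725 and 9638 untreated and 10647, 8611 and 7229 with EPA. The groups overlapped on both wells (exact permutation p = 0.7 on plate 1 and 0.3 on plate 3, two-sided). The signal left was 102% ± 7.42 on plate 1 and 85.0% ± 11.2 on plate 3 (SE, n = 3 each), where the control wells of the same rows kept 45.0% ± 6.99 and 38.3% ± 3.40.

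Without EPA GRK2 was at -1.14 (SE 0.124) on plate 1 and -0.96 (SE 0.116) on plate 3, both called lower, as were 35.6% of library wells in the untreated samples. These levels were 21.5% ± 2.52 and 23.0% ± 2.91 (SD) of OTP3. Both wells were called lower untreated in each of 16 alternatives, though after median polish they stood at -0.95 and -0.37. With EPA both were nearer the library, at -0.43 and -0.39, and stood at 47.5% ± 13.8 and 44.8% ± 7.18 (SD) of OTP3. Both were called lower there, but after median polish they were at -0.25 and 0.12 and neither was called. The call also rested on single samples: it was lost on plate 1 without EPA-treated replicate 4 (-0.28), and on plate 3 without EPA-treated replicate 5 (-0.35) or 6 (-0.32).

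The difference was 0.72 (SE 0.175, limma adjusted p = 0.0091) on plate 1 and 0.56 (SE 0.164, limma adjusted p = 0.019) on plate 3, and both were called higher. A higher call here means that a smaller share was lost than by the median library signal of the plate, not that the signal rose. The median library well itself stood at 0.20 in this difference, and 29% of library wells were called higher. On plate 1 the call held in all 17 alternatives, with differences from 0.57 to 1.22 on the log2 scale. On plate 3 it held in 13 of 17. It was lost with blank subtraction (limma adjusted p = 0.0802), with each plate's median EPA-treated minus untreated difference set to 0 (0.175), without untreated replicate 3 (0.0738) and without EPA-treated replicate 4 (0.0513). The wells read 2.88 and 2.27 times the blank level with EPA, which limits how far a further fall could be read.

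**Figure D2:**
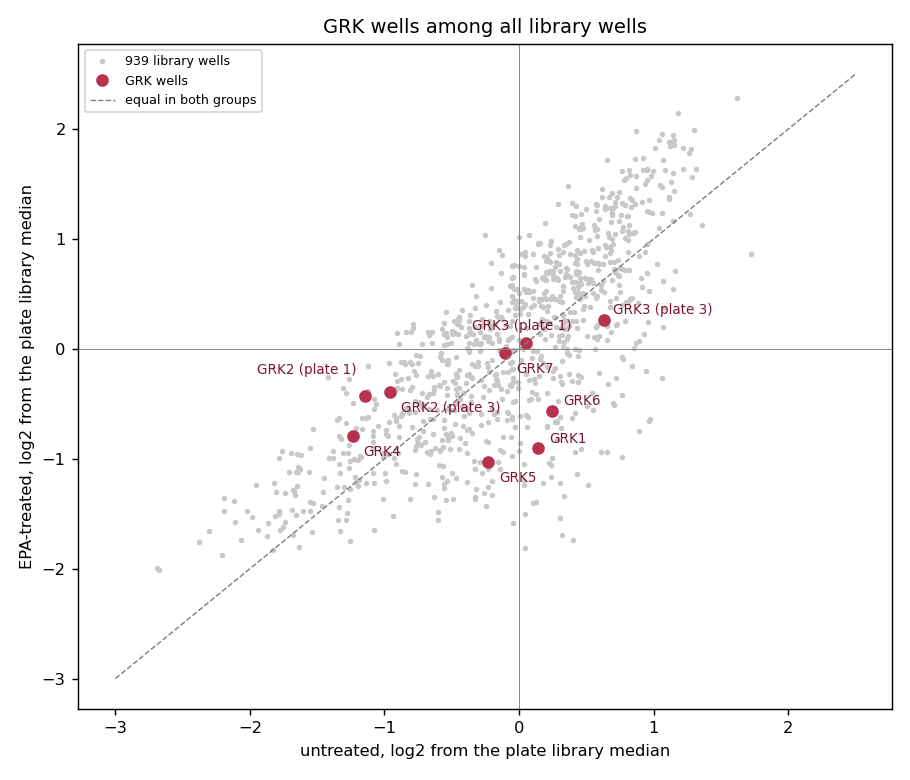
Log2 value from the plate's library median without EPA (x axis) and with EPA (y axis) for 939 library wells (grey, group means) and the 9 GRK wells (red), with the line of equal values dashed. GRK1, GRK5 and GRK6 lie below the line, the GRK2 wells and GRK4 lie on its upper left, and GRK7 and the GRK3 well on plate 1 lie close to it.

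GRK3, the closest relative of GRK2, did not share its low level. The well on plate 1 read 28366, 16768 and 32859 units untreated and 23603, 9666 and 16597 with EPA, and these values overlapped. The highest was 1.96 times the lowest untreated and 2.44 times with EPA, and 41 and 11 of the 939 library wells had a wider spread. The well on plate 3 read 33154, 30657 and 29612 untreated and 15113, 12133 and 14142 with EPA, with no overlap. GRK3 wells kept 63.9% ± 19.5 of their signal on plate 1 (SE, n = 3 each; exact permutation p = 0.2, two-sided) and 44.3% ± 3.19 on plate 3 (p = 0.1, exact, the smallest possible).

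On plate 3 GRK3 was called higher than the library untreated, at 0.63 (SE 0.106), as were 33.9% of library wells, and with EPA, at 0.27 (limma adjusted p = 0.0432). The call with EPA held in 5 of 16 alternatives, and of the 6 samples it survived the loss of EPA-treated replicate 5 alone. On plate 1 it was at 0.05 in both groups (SE 0.219). Against OTP3, GRK3 was lower untreated on both wells, at 50.7% ± 14.8 and 69.1% ± 7.23 (SD). The difference was 0.0026 (95% interval -0.69 to 0.69) on plate 1 and -0.37 (95% interval -0.70 to -0.03, limma adjusted p = 0.0701) on plate 3. On plate 3 it was called lower after median polish (-0.56), with quantile normalization (-0.50) and with each plate's median difference set to 0 (-0.63). On plate 1 it was called higher against the controls of its row (0.85).

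The 2 wells of GRK2, and those of GRK3, carried the same catalogue number. One was a kinome library well on plate 1 and the other a GPCR library well on plate 3, which also held kinome wells. They show how far a value repeats when the same reagent stands on another plate, at another position and against another library median. In all, 13 reagents stood on 2 wells. The difference with EPA had the same sign on both wells for 8 of the 13, and the 2 wells were a median of 0.37 log2 units apart, from 0.03 to 0.71. The GRK2 wells were 0.15 apart in this difference, with 2 pairs closer, and 0.19 apart untreated, with 1 pair closer. The GRK3 wells were 0.37 apart in the difference and 0.58 apart untreated, where the median was 0.56. With EPA the GRK2 wells were 0.04 apart, the closest of the 13 pairs.

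**Figure D3:**
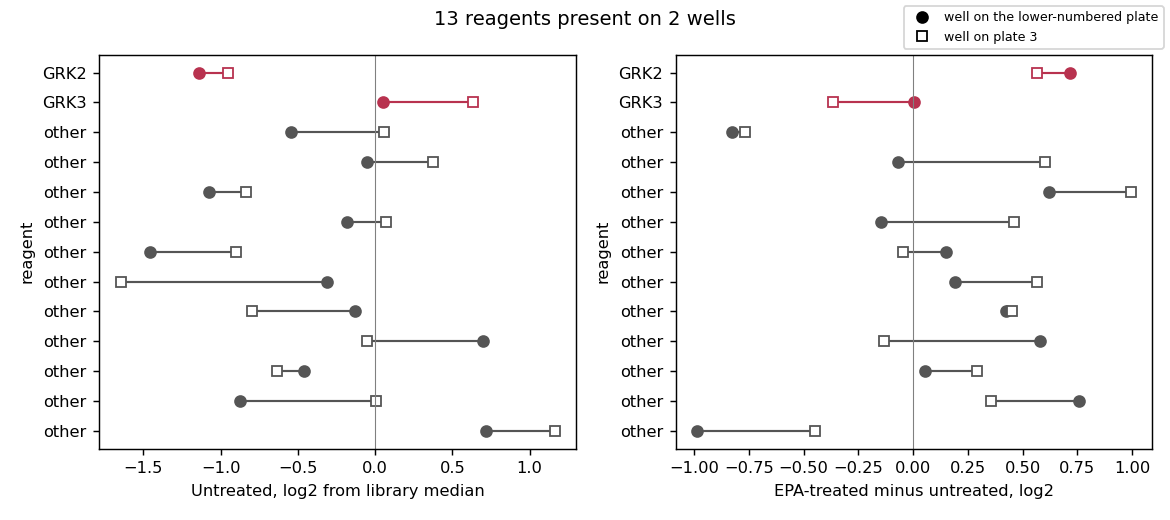
Log2 values of the 13 reagents present on 2 wells, untreated relative to the library median (left) and EPA-treated minus untreated (right), with GRK2 and GRK3 in red at the top and the other 11 in grey. Filled circles are wells on plate 1 (plate 2 for 1 reagent) and open squares wells on plate 3; the GRK2 wells lie 0.19 and 0.15 apart, and the GRK3 wells 0.58 and 0.37.

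GRK4, GRK5 and GRK6 stood, with GRK7, in row 12 of plate 1, on every other column, so these 4 share their plate, row and control wells. The 2 siRNA-free wells of the row fell from 50631 to 22201, and 43.8% ± 4.44 (SE) of their signal was left. The order of the levels in this row was GRK6, GRK7, GRK5 and GRK4 untreated, and GRK7, GRK6, GRK4 and GRK5 with EPA. Untreated, the 3 GRK6 values lay above all those of the other 3 members, GRK4 lay below all, and the GRK7 and GRK5 values overlapped. With EPA, GRK7 lay above the others, and GRK6, GRK4 and GRK5 overlapped.

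GRK4, known mainly from testis and kidney, had the lowest untreated signal of the family. Its wells read 10775, 8962 and 11084 units untreated and 10011, 7320 and 8807 with EPA, and the groups overlapped (exact permutation p = 0.2, two-sided). Untreated it stood at -1.24 (SE 0.115, limma adjusted p = 7.43e-06), which is 20.1% ± 1.77 (SD) of OTP3, and it was the lowest of the 20 library wells of its row. It was called lower untreated in each of 16 alternatives, and stood at -0.70 after median polish. With EPA it was at -0.80 (SE 0.115), called lower, but at -0.23 and not called after median polish. With EPA 84.8% ± 9.34 (SE) of the signal was left. The difference of 0.44 (95% interval 0.08 to 0.80) narrowly missed the threshold (limma adjusted p = 0.0501). It was called higher in 6 of 17 alternatives, among them OTP3 (0.83) and the controls of the row (1.06) as the reference.

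GRK5, which also acts in the nucleus on histone deacetylases, read 25919, 24320 and 13803 units untreated and 10793, 5777 and 6361 with EPA. The groups did not overlap, but 1 value in each stood away from the other 2, the low one in untreated replicate 3 and the high one in EPA-treated replicate 4. The signal left was 35.8% ± 9.78 (SE, n = 3 each; exact permutation p = 0.1, two-sided, the smallest possible). GRK5 was at -0.23 (SE 0.186) untreated, not past the threshold, and at -1.03 (SE 0.186) with EPA, called lower. The lower call with EPA held in each of 16 alternatives. The difference was -0.80 (SE 0.263, limma adjusted p = 0.033). It lost the threshold without untreated replicate 1 (-0.63), untreated replicate 2 (-0.69), EPA-treated replicate 5 (-0.66) or EPA-treated replicate 6 (-0.74), with limma adjusted p from 0.0963 to 0.109.

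GRK6, a kinase of many chemokine and other receptors in blood cells, read 30538, 27223 and 28063 units untreated and 9402, 9397 and 11915 with EPA. The groups did not overlap, and the values within each lay close together. The signal left was 35.8% ± 3.18 (SE, n = 3 each; exact permutation p = 0.1, two-sided, the smallest possible). Of the 20 library wells of the row 3 had a lower share left than GRK6. GRK6 was at 0.25 (SE 0.126) untreated, which did not pass (limma adjusted p = 0.106), and with EPA it was at -0.56 (SE 0.126). The difference was -0.81 (SE 0.178, limma adjusted p = 0.00574), and it passed without each of the 6 samples in turn. After blank subtraction 25.6% ± 3.39 was left and the difference was -1.11. After median polish GRK6 was at 0.86 untreated and at 0.17 with EPA, a difference of -0.69 that was called lower. With blank subtraction before the polish the difference was -0.72 and missed the threshold (limma adjusted p = 0.0513).

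The lower calls of GRK5 and GRK6 were relative to the library siRNAs. Against the siRNA-free wells of their row, which kept 43.8%, the differences were -0.19 for both (limma adjusted p = 0.6 for GRK5 and 0.467 for GRK6). With OTP3 of the plate as the reference they were -0.41 (limma adjusted p = 0.176) and -0.42 (0.133). GRK1 was thus the one GRK called lower against the library, against OTP3 and against the controls of its row. With the row's controls as the reference 1 of 9 GRK wells was called lower and 5 higher (both GRK2 wells, the GRK3 well on plate 1, GRK4 and GRK7), where 6.92% and 53% of all library wells were. With OTP3 as the reference 1 was called lower (GRK1) and 3 higher (both GRK2 wells and GRK4), where 6.28% and 58.1% of all library wells were. After median polish 4 were called lower (GRK1, GRK3 on plate 3, GRK5 and GRK6) and 2 higher (both GRK2 wells), where 14.2% and 16.2% were.

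**Figure D4:**
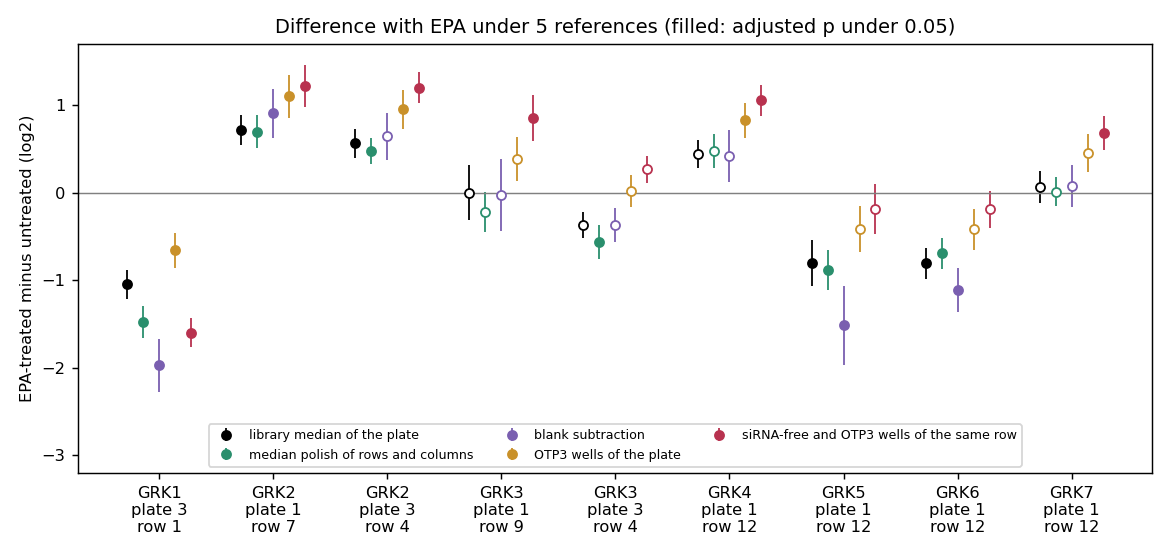
EPA-treated minus untreated difference (log2, with SE) of each GRK well under 5 ways of setting the reference, filled where the limma adjusted p is under 0.05. GRK1 is below 0 under all 5, GRK2 is above 0 under all 5 on both plates, and GRK5 and GRK6 are called lower under 3 of the 5.

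**Figure D5:**
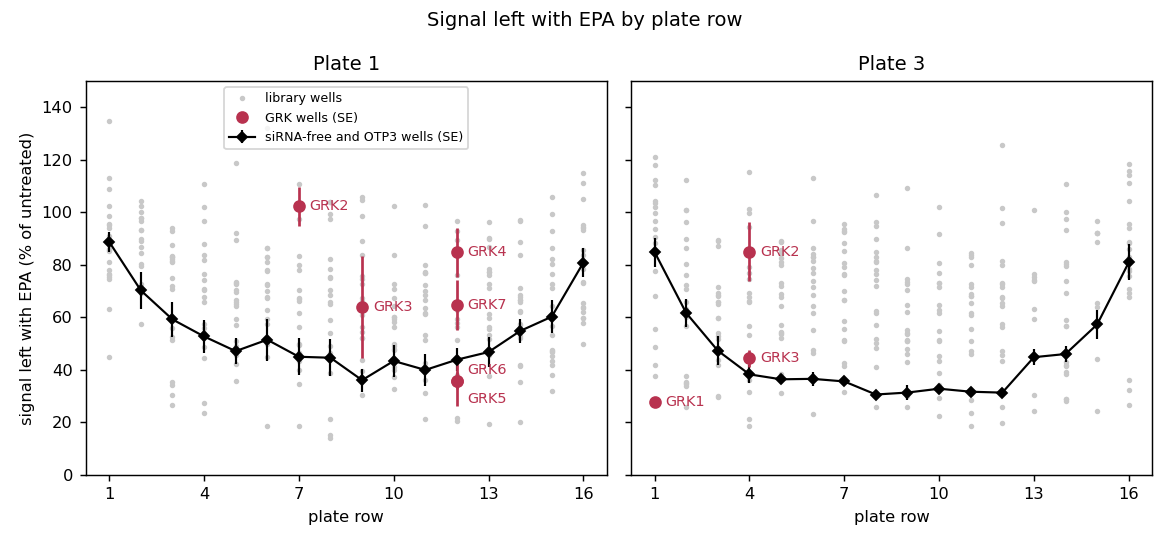
Share of the untreated signal left with EPA (percent) by plate row on plates 1 and 3. Library wells are grey and GRK wells red (SE). Black marks the mean of the control wells in each row (siRNA-free, OTP3 or both, SE). GRK1, at 27.7%, lies far below the 84.8% of its row's controls, whereas GRK5 and GRK6, both at 35.8%, lie near the 43.8% of theirs.

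Against OTP3, all 9 GRK wells were called lower without EPA, near the library share of 91.8%. In order of level they stood at 20.1% (GRK4), 21.5% and 23.0% (GRK2), 42.2% (GRK5), 44.5% (GRK7), 49.0% (GRK1), 50.7% (GRK3, plate 1), 56.1% (GRK6) and 69.1% (GRK3, plate 3) of OTP3. The 3 lowest overlapped with each other and lay below all values of the others. With EPA the order ran from GRK5 (30.4% ± 3.06) and GRK1 (31.1% ± 1.5) through GRK4 (35.7% ± 3.88), GRK6 (43.2% ± 12.1), and GRK2 (44.8% ± 7.18 and 47.5% ± 13.8) to GRK7 (60.7% ± 9.15) and GRK3 (65.2% ± 13.7 and 69.96% ± 3.49; SD, n = 3). GRK5 and GRK1 were not told apart by these spreads, nor were GRK4, GRK6 and GRK2.

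Around the GRKs, 4 lists of the same pathway had measured members. ARRB1, the gene of beta-arrestin 1 and the 1 arrestin measured of 4, gave a very low signal, 6410 ± 1299 units untreated and 4576 ± 438 with EPA (SD, n = 3). It stood at -1.67 untreated and -1.33 with EPA, both called lower. Its difference of 0.34 was not past the threshold (limma adjusted p = 0.16), turned to -0.70 after blank subtraction, and was called higher at 1.01 against the controls of its row.

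Of 15 G-protein subunits 5 were called lower and 5 higher in the difference, with a median of 0.30 against 0.20 over the library, where 15.2% were called lower and 29% higher. The lower ones included GNAI1 (-0.98, SE 0.135), an inhibitory alpha subunit, and GNA13 (-1.02, SE 0.155), an alpha subunit of another class. GNB4, a beta subunit, was higher at 1.03, in an edge well, as were 11 of the 15 wells, and was at 0.20 and not called after median polish. The counts of the list depended on the reference. Median polish gave 5 lower and 2 higher with a list median of -0.35. Over the library 14.2% and 16.2% were called with it, and the median was 0.07. OTP3 gave 2 lower and 8 higher with a list median of 0.69. Over the library 6.28% and 58.1% were called with it, and the median was 0.63.

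The 25 measured receptors known as GRK substrates stood on 29 wells, with 8 lower and 9 higher and a median of -0.01 (library, 15.2% lower and 29% higher). They were led by LPAR1 (-1.62, SE 0.205, listed as EDG2) and F2R (-1.33, SE 0.177), receptors of lysophosphatidic acid and thrombin, and CCR2 (-1.13, SE 0.162), a chemokine receptor. LPAR1 and F2R stayed called lower after median polish and against the controls of their rows. CCR2, which read 4555 units with EPA, was called after median polish (-1.36) but not against its row's controls (-0.20). Median polish gave 9 lower and 3 higher (library, 14.2% and 16.2%), and OTP3 as the reference 4 and 14 (library, 6.28% and 58.1%). Of the 8 protein kinases A and C, which also phosphorylate receptors, 0 were lower and 2 higher, with PRKCA at 0.48, PRKCD at 0.49 and PRKACA at -0.44 (limma adjusted p = 0.0278, 0.0375 and 0.15). At an unadjusted p under 0.05 the counts were also 0 and 2, with no library share at that threshold given here to set beside them. By adjusted p 15.2% of library wells were called lower and 29% higher. The higher count was 5 with OTP3 and 6 with the row's controls, where 58.1% and 53% of all library wells were called higher. It was 0 with each plate's median difference set to 0, where 131 of 939 library wells were called higher. PRKCA was not called with quantile normalization (limma adjusted p = 0.0964), nor PRKCD after median polish (0.417). None of the 10 adenylyl cyclases and neither FFAR1 nor FFAR4, receptors of long-chain fatty acids such as EPA, was among the library wells analysed here.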

How the data were processed

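The deposited table holds the raw fluorescence intensity of each well, with no normalization per the file headers, in 6 columns over 3 plates of 16 rows and 24 columns. Per the file headers, columns 1 to 3 were untreated and 4 to 6 EPA-treated; the labels tie each column to its group, not to a named sample. Nothing says that the 3 samples of a group were separate cultures, so the spread behind each p-value may be technical. The sources used here give neither the plate reader's settings nor any position correction by the authors. Plate rows and columns were read from the position number of each well, taken to run along the rows of the plate. The labels do not state this order, and every statement on rows, columns and edge wells rests on it. Current gene names came from RefSeq by locus identifier (933 of 939 wells matched).

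Intensity was set against the median library well, per plate and sample, and taken as log2, without pseudocount or low-value filter. All 939 library wells were fitted with limma 3.58.1 (lmFit, eBayes with trend and robust variance) in R 4.3.3, with a mean per group, 3 contrasts and Benjamini-Hochberg adjustment over the 939 wells; adjusted p refers to this fit. The untreated samples enter both the untreated and the difference contrast. Raw groups were compared by exact permutation, two-sided. Wells are not replicates of a condition, so no test combined them. Blank wells, siRNA-free cells and OTP3 were used as references, and the 159 library wells in plate rows 1 and 16 and column 24 were called edge wells. The positive control, TOX, was used only to set the low-signal filter among the alternatives. Untreated, it read 9748 ± 9756 units on plate 3 (SD, n = 3), against 4566 ± 288 on plate 1 and 4588 ± 213 on plate 2. With EPA it read 3745 ± 77.2 on plate 3. Alternatives changed the reference, background, plate-position correction, normalization, variance model, filter, scale or samples.

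The fit was tested on simulated data of 939 wells with known log2 changes. It recovered 100% of changes of -1.5, 96% of -1, 56% of -0.5 and 54% of 0.5, and 9 of 162 calls were false. With 3 samples per group, small differences can therefore be missed. The simulated noise was independent and normal, without row or edge effects, so the share of false calls in the real wells was not tested. Every GRK was named. From each surrounding list up to 3 members with the largest absolute moderated t were named, and for the GRK with the largest such t the 3 nearest library genes. The members and lists were chosen with earlier results of these data known.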

Additional observations from a re-analysis of the deposited data

Results flagged for a closer look

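The effect of the siRNA differed between EPA-treated and untreated samples, by the limma test of that difference, for 5 of 9 GRK wells, beside 44.2% of all 939 library wells. It was -1.04 on the log2 scale for GRK1 (limma adjusted p = 0.00136), -0.81 for GRK6 (0.00574) and -0.80 for GRK5 (0.033), each lower with EPA. It was 0.72 for GRK2 on plate 1 (0.0091) and 0.56 on plate 3 (0.019), each higher with EPA. The groups hold 3 samples each, too few for a test of single outlying samples.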

How the results depend on the processing

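In the difference between EPA-treated and untreated samples GRK1 was called lower in all 16 alternatives that gave it a value, and GRK2 on plate 1 higher in all 17. The count of library calls, 415, was 260 with blank subtraction and median polish, and the untreated count, 652, was 425. The split of lower and higher library calls, 143 and 272, was 59 and 546 with OTP3, 65 and 498 with the row's controls, 133 and 152 with median polish, 160 and 182 with quantile normalization, 194 and 131 with each plate's median difference set to 0 (difference centring) and 135 and 125 with blank subtraction and polish. OTP3 and the row's controls moved the median siRNA to 0.63 and 0.53. GRK wells called lower in the difference, 3, were 1 with OTP3 or the row's controls. Those called higher, 2, were 1 with blank subtraction or difference centring, 5 with the row's controls, and 1 to 2 without each sample. Untreated, lower GRK wells rose from 3 to 9 with OTP3 or the row's controls. Lower library wells rose from 334 to 862 and 887 of 939. Higher GRK wells, 1, were 0 with these references and 3 with median polish. They were 2 with blank subtraction and polish, without edge wells or on a linear scale. Higher library wells, 318, were 5 and 2 with these references and 245 with median polish. In the other 3 settings they were 206 of 939, 260 of 780 and 305 of 939. With EPA, lower GRK wells, 6, were 2 with polish, with or without blank subtraction, and 3 without edge wells. Lower library wells, 347, were 282 with polish, 289 with blank subtraction added, and 285 of 780 without edge wells. Higher GRK wells, 1, were 0 with OTP3, the row's controls, polish with or without blank subtraction, quantile normalization and a linear scale. They were 0 to 1 without each sample. Higher library wells, 342, were 127 with OTP3, 64 with the row's controls, 285 with polish and 276 with blank subtraction added. They were 328 with quantile normalization and 341 on a linear scale. Among levels called in the main or the alternative setting, those that changed sign untreated were GRK1 (-1.03 with OTP3, -0.36 with polish, -1.40 with the row's controls), and with OTP3 and the row's controls GRK3 on plate 1 (-1.03, -0.89), GRK3 on plate 3 (-0.54, -0.72) and GRK6 (-0.84, -0.82). With EPA they were GRK2 on plate 3 (0.12 with polish, 0.25 with blank subtraction added), GRK6 (0.17, 0.29), GRK3 on plate 1 (-0.64 with OTP3) and GRK3 on plate 3 (-0.52 with OTP3, -0.45 with the row's controls). Some levels called in neither setting also changed sign, such as GRK5 untreated (0.28 with polish). OTP3 and the row's controls lie above most library siRNAs, which lowers every level set against them; the cause of the other changes was not tested. Signals near the blank limit how low a well can read. GRK1, an edge well, had no value without edge wells, and difference centring was tried only for the difference. No paired analysis was possible because the column numbers run from 1 to 6 through both groups and share none.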
